A study of Homo sapiens with 4 samples.

Results

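Wnt ligands, the receptors that bind them and the secreted proteins that block them were followed after knockdown of LSD1 in SH-SY5Y, a line of human neuroblastoma cells. The 38 genes were those with a symbol of the WNT, FZD, SFRP or DKK families, LRP5, LRP6, WIF1 or FRZB and at least 1 probe set annotated to that gene alone, out of 19775 genes on the array. They comprised 17 ligands, 9 Frizzled receptors, 2 LRP co-receptors and 10 antagonists. WNT3, WNT3A and FZD8 also carry such symbols in RefSeq and were not analysed here. Where a gene had several probe sets, the one with the highest mean level stood for it.

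The cells had received an siRNA against LSD1, a histone demethylase encoded by KDM1A, or a control siRNA (siLSD1 and siControl below). Each group had 2 numbered replicates with 1 Affymetrix array per replicate, and the sample titles do not say whether these were separate transfections. All 4 arrays came from the same parental line, with no further treatment, dose or time after transfection given in the labels, and the title of siLSD1 replicate 2 writes the target as LSD without its number. With 2 arrays in each group the smallest two-sided p of an exact permutation test is 0.333, so groups were compared with limma's moderated test across all genes. In RNA pooled from many cells, fewer cells with a transcript and less of it per cell cannot be told apart. Levels are log2 signals after quantile normalization, and every fold change gives siLSD1 over siControl.

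Wnt proteins are secreted, lipid-modified signals that bind Frizzled receptors on the cell surface. With LRP5 or LRP6 as co-receptor, a bound Frizzled halts the breakdown of beta-catenin, which then joins TCF and LEF factors on target genes, while other Wnt signals steer cell polarity and migration without beta-catenin. SFRP proteins, FRZB and WIF1 bind the ligands outside the cell, and DKK1 binds the co-receptors. In the embryo Wnt signals take part in the induction of the neural crest, from which the sympathetic nervous system and neuroblastoma arise.

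The sequences just upstream of 2 members are shown first. DKK1 was chosen as a feedback inhibitor that is itself a known target of beta-catenin, and FZD5 as the one of the 16 tested members with the largest difference between the groups. Both stretches are the 250 bases before the RefSeq start in GRCh38.p14, printed 5′ to 3′ on the gene's strand. DKK1 lies at chr10:52314031-52314280 on the plus strand and FZD5 at chr2:207769907-207770156 on the minus strand. Capitals mark matches, on either strand, to CTTTGA (core of the TCF and LEF motif), CAGGTG (the E-box that SNAI-type repressors bind) or TATAAA (the box near many starts that the general transcription machinery binds).
DKK1: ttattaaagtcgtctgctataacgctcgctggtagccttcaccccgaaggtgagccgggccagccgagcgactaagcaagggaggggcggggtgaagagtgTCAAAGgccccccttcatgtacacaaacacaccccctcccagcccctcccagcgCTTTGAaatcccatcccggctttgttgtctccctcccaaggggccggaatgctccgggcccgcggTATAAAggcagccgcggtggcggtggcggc
FZD5: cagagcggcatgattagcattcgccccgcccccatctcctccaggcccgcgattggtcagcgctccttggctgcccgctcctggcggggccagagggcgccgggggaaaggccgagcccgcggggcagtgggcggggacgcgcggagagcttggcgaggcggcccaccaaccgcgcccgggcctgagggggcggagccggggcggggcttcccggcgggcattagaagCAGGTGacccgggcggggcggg
The DKK1 stretch held CTTTGA on the gene's strand from base 95 to base 90 before the start and its complement TCAAAG from base 149 to base 144. It also held TATAAA from base 30 to base 25 before the start. The FZD5 stretch held CAGGTG from base 22 to base 17 before the start. No 2 of these matches overlapped. CTTTGA or its complement occurred in 11.2% of all 35116 promoters of this length, CAGGTG in 17.5% and TATAAA in 10.7%. Among the 25 members with a promoter entry, CTTTGA was found in DKK1 alone. CAGGTG was found in 5 (FZD5, WNT2B, WNT5A, WNT7A and WNT9B) and TATAAA in 2 (DKK1 and WNT5B). A match describes letters in this window, not a bound site.

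The knockdown itself was visible on both siLSD1 arrays. KDM1A stood at 9.79 and 9.78 in siControl and at 8.40 and 8.54 in siLSD1, a log2 fold change of -1.32 (95% interval -1.69 to -0.95, unadjusted p = 3.28e-05 and adjusted p = 0.39 in limma). The adjusted p in limma ran from 0.0194 to 0.998 over the alternatives with 2 arrays in each group. It passed only with the replicate number as a block. Of 9 sympathetic neuroblastoma markers with a probe set, 8 passed the level filter, among them PHOX2A, HAND2 and GATA3, with a median level of 10.63. TH, the enzyme that opens catecholamine synthesis, was at 0.83 and did not pass. None of 5 Schwann and glial markers passed, and of 6 blood cell markers HBB alone did. Of 7 epithelial markers 3 passed (EPCAM, KRT8 and KRT18), the highest at a mean level of 4.44, while CDH1 did not. Of 8 fibroblast markers 7 passed. The log2 of their summed signal was 10.00 and 9.55 in siControl and 9.91 and 10.18 in siLSD1. It was highest on siLSD1 replicate 2, the array that also held most of the Wnt members' highest values. The sums of the blood cell and epithelial markers were highest on that array too, at 6.10 and 6.48. That of the glial markers was highest on siLSD1 replicate 1 (5.47) and that of the neuroblastoma markers on siControl replicate 2 (13.97). The part of these markers in the Wnt results was not tested.

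Few Wnt ligands, but most of their receptors, gave a signal that could be tested. A gene was tested when its mean over the 4 arrays reached 4.12, the level below which 40% of all genes lay. This filter passed 60% of all genes and 16 of the 38 members, or 42.1%. Both LRP co-receptors and 7 of the 9 Frizzled receptors passed, against 5 of the 10 antagonists and 2 of the 17 ligands. The 15 ligands below the filter were WNT1, WNT2, WNT2B, WNT4, WNT5B, WNT7A, WNT7B, WNT8A, WNT8B, WNT9A, WNT9B, WNT10A, WNT10B, WNT11 and WNT16, with means from -0.24 to 4.07. The receptors FZD9 and FZD10 were below it, at 3.79 and 2.30. So were the antagonists DKK4, SFRP2, SFRP4, SFRP5 and WIF1, with means from 0.36 to 3.36. WNT16 at 4.07 lay just under the filter and DKK2 at 4.59 was the tested member nearest above it. A low signal on an array does not show that a transcript was absent. Among the 22 members below the filter, both siLSD1 values lay below both controls in DKK4, WNT1 and WNT9A and above them in WNT7A, while the groups of the other 18 overlapped. Single values of these 22 ran from -1.41 to 4.73. With no filter the groups did not overlap in 32.6% of all 19775 genes and in 8 of the 38 members.

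No Wnt member changed at an adjusted p under 0.05 in the comparison of siLSD1 with siControl. In limma 0 of the 16 tested members passed, as did 0 of all 11865 genes (0% called), and the adjusted p was 0.9996 for each of the 16. At an unadjusted p under 0.05 there were 2 members in limma, FZD2 and FZD5, where 3.45% of all genes passed, 2.29% of all genes higher and 1.15% lower. With no overlap between the groups, 4 members were higher (DKK3, FRZB, FZD2 and FZD5) and 0 lower. Over all genes the groups did not overlap in 31.7%, with 16.6% higher and 15.1% lower, so that 4 of 16, or 25%, is a share near the background. At least 2-fold higher without overlap were FZD2 and FZD5, where 0.632% of all genes met the same rule, and 0 members were 2-fold lower beside 0.337% of all genes. Of the 16 members, 14 had a higher mean in siLSD1 cells, against 51.3% of all genes. Their median log2 fold change was 0.20, beside 0.01 over all genes tested.

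**Figure D1:**
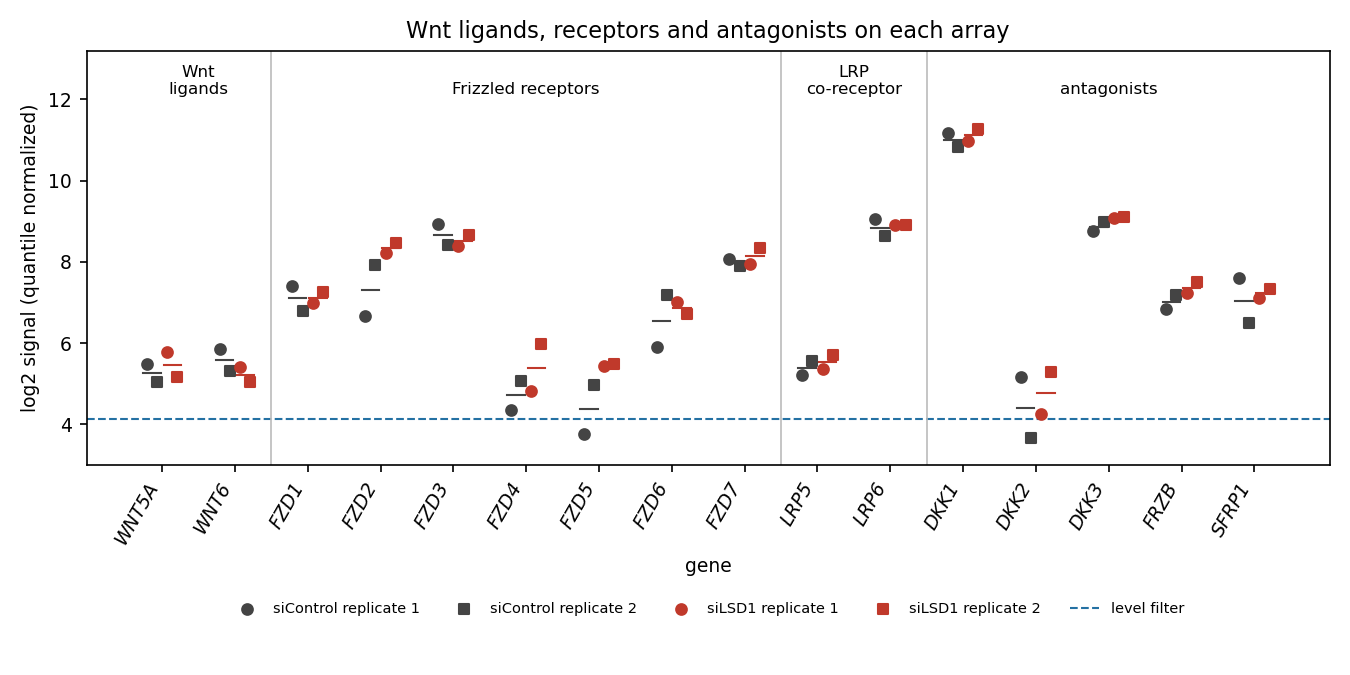
Log2 signal (vertical axis, quantile normalized) of the 16 tested genes, grouped by role, with 1 point per array (grey siControl, red siLSD1) and short lines at the group means (n = 2). In FZD2 and FZD5 the grey circle, siControl replicate 1, lies far below the other 3 points, and only for 4 genes do both red points lie above both grey points. Heights of different genes come from different probes and are not comparable.

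The size of this shift depended on single arrays, while the members' median stayed above 0 with any 1 of them left out. Without siControl replicate 2, 8 members stood higher and 8 lower, around a median of 0.025 beside -0.05 over all genes. Without siLSD1 replicate 2 the split was 9 to 7, around a median of 0.07 beside -0.02 over all genes. Without siControl replicate 1 or without siLSD1 replicate 1 it was 13 to 3 both times, around a median of 0.27 in each case. The median over all genes was then 0.04 and 0.05. On siLSD1 replicate 2, 9 of the 16 members had their highest value, where 29.3% of all genes did. The siControl arrays held the lowest value of 14 members, 7 on each, where replicate 1 held that of 26.8% and replicate 2 that of 31.2% of all genes.

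Among the ligands, both tested genes had overlapping groups. WNT5A, a ligand known mostly for signals that bypass beta-catenin, was at 5.49 and 5.03 in siControl and at 5.78 and 5.16 in siLSD1. The higher value of each group came from its replicate 1, and the log2 fold change was 0.21 (95% interval -0.62 to 1.04). WNT6, a ligand of epithelia that lies next to WNT10A in the RefSeq gene order, was at 5.86 and 5.30 in siControl and at 5.40 and 5.04 in siLSD1. Its log2 fold change was -0.37 (95% interval -1.16 to 0.43), the lowest of the 16, and siLSD1 replicate 1 lay between the control values. The log2 fold change was -0.086 without siControl replicate 1 and -0.65 without siControl replicate 2.

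Among the 16 tested members, the largest differences were those of the Frizzled receptors FZD5 and FZD2. FZD2, a receptor known to respond to WNT5A, was at 6.67 and 7.93 in siControl and at 8.21 and 8.46 in siLSD1. Both siLSD1 values lay above both control values, but the control arrays differed from each other by more than siControl replicate 2 differed from either siLSD1 array. The means were 7.30 ± 0.89 and 8.34 ± 0.17 (SD, n = 2), a 2.05-fold difference with a log2 fold change of 1.03 (95% interval 0.16 to 1.91). In limma the unadjusted p was 0.0256 and the adjusted p 0.9996. The log2 fold change was 0.40 without siControl replicate 1. Without siControl replicate 2, where siControl replicate 1 was the only control array left, it was 1.67.

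FZD5, a receptor with known roles in the eye and the gut, had the same arrangement. It was at 3.77 and 4.97 in siControl, with replicate 1 below the filter level, and at 5.43 and 5.48 in siLSD1. The means were 4.37 ± 0.84 and 5.46 ± 0.04 (SD, n = 2), a 2.12-fold difference with a log2 fold change of 1.09 (95% interval 0.05 to 2.12). In limma the unadjusted p was 0.0418 and the adjusted p 0.9996. The log2 fold change was 0.49 without siControl replicate 1 and 1.68 without siControl replicate 2.

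FZD4, which also serves as the receptor of Norrin in retinal vessels, was at 4.35 and 5.08 in siControl and at 4.81 and 5.98 in siLSD1. Its groups overlapped, and its log2 fold change of 0.68 (95% interval -0.40 to 1.77) was 0.10 without siLSD1 replicate 2. It was 1.27 without siLSD1 replicate 1 and 1.05 without siControl replicate 2. FZD6, a receptor of hair and tissue polarity, was at 5.91 and 7.18 in siControl and at 7.01 and 6.71 in siLSD1. The siLSD1 values lay between the control values, and the log2 fold change of 0.31 turned to -0.32 without siControl replicate 1. In 3 receptors, FZD2, FZD5 and FZD6, siControl replicate 1 was thus more than 1 log2 unit below siControl replicate 2. In the antagonists DKK2 and SFRP1 siControl replicate 1 was the higher of the pair, by 1.49 and 1.10. Over all genes siControl replicate 1 held the highest value of 39.2% and the lowest of 26.8%.

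The other 3 tested Frizzled genes had overlapping groups. FZD3, a receptor needed for the growth of axon tracts, was at 8.93 and 8.41 in siControl and at 8.39 and 8.66 in siLSD1, with a log2 fold change of -0.14 (95% interval -0.68 to 0.39). It turned to 0.12 without siControl replicate 1 and to 0.041 under median centring. FZD7, a receptor found on many stem and progenitor cells, was at 8.08 and 7.89 in siControl and at 7.95 and 8.35 in siLSD1, with a log2 fold change of 0.16 (95% interval -0.36 to 0.69). FZD1 was at 7.41 and 6.79 in siControl and at 6.98 and 7.26 in siLSD1, both siLSD1 values lying between the controls, with a log2 fold change of 0.02 (95% interval -0.64 to 0.67). For FZD7 the intervals leave room for a 1.5-fold difference in the upward direction and for FZD1 in both, so that the arrays do not show equal levels.

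The co-receptors LRP5 and LRP6 had overlapping groups in the probe sets that stood for them. LRP6 was at 9.05 and 8.64 in siControl and at 8.90 on both siLSD1 arrays, between the control values, with a log2 fold change of 0.05 (95% interval -0.40 to 0.50). Another LRP6 probe set was at 5.64 and 5.78 in siControl and at 6.33 and 6.07 in siLSD1, without overlap. Its log2 fold change was 0.49 (95% interval -0.19 to 1.17). The remaining LRP6 probe set had overlapping groups and a log2 fold change of 0.0049. LRP5 was at 5.22 and 5.56 in siControl and at 5.35 and 5.71 in siLSD1, with a log2 fold change of 0.14 (95% interval -0.61 to 0.89).

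**Figure D2:**
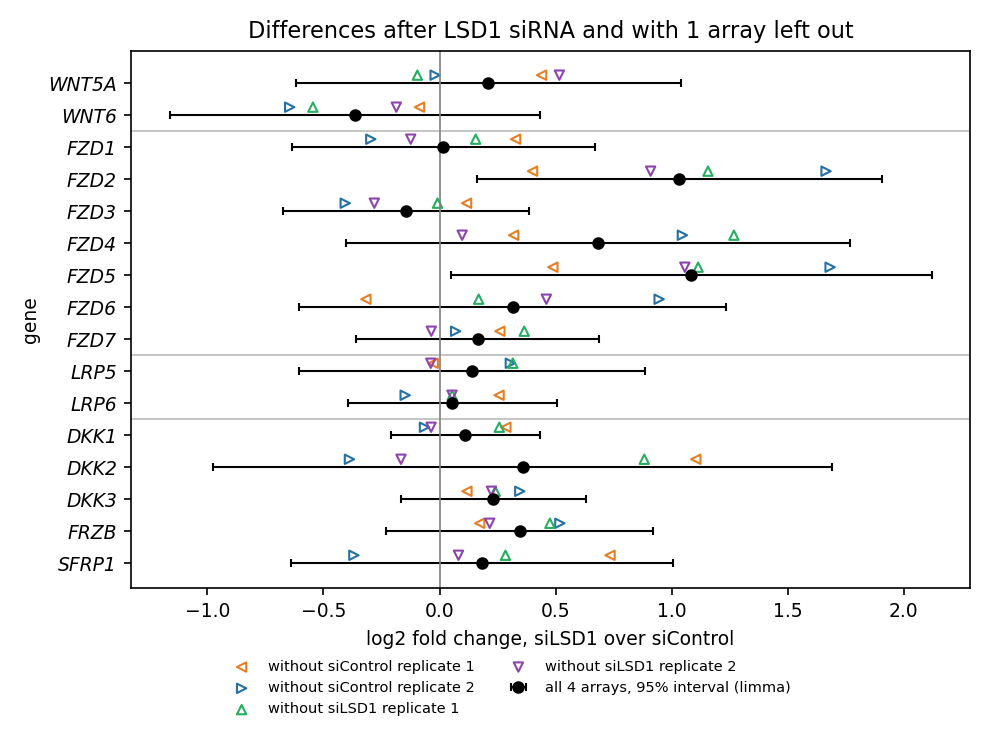
Log2 fold change of the 16 tested genes, siLSD1 over siControl (horizontal axis), with limma's 95% interval as a bar; open triangles give the value with 1 array left out. Only the intervals of FZD2 and FZD5 lie above 0, and their leftmost triangles, 0.40 and 0.49, are the values without siControl replicate 1.

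The antagonists included the member with the narrowest interval. DKK1, which blocks LRP5 and LRP6, was at 11.18 and 10.83 in siControl and at 10.97 and 11.26 in siLSD1. The groups overlapped, and the log2 fold change was 0.11 with a 95% interval from -0.21 to 0.43, which leaves out a 1.5-fold difference in either direction. DKK1 had a single probe set, so no second reading of it was possible.

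DKK3, a relative of DKK1 that is not known to block the co-receptors in the same way, was at 8.75 and 8.98 in siControl and at 9.09 and 9.11 in siLSD1. Both siLSD1 values were above both controls, by 0.11 at the nearest, with a log2 fold change of 0.23 (95% interval -0.17 to 0.63). FRZB, a soluble relative of the Frizzled receptors, was at 6.85 and 7.19 in siControl and at 7.24 and 7.50 in siLSD1. The groups were 0.04 apart, and the log2 fold change was 0.35 (95% interval -0.23 to 0.92), or 0.17 without siControl replicate 1.

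SFRP1, another soluble Wnt-binding protein, was at 7.59 and 6.49 in siControl and at 7.12 and 7.32 in siLSD1, between the control values. Its log2 fold change of 0.18 (95% interval -0.64 to 1.01) turned to -0.37 without siControl replicate 2. DKK2, which can block or favour signalling depending on context, was at 5.16 and 3.66 in siControl and at 4.24 and 5.29 in siLSD1. It had the widest interval, from -0.97 to 1.69 around 0.36, and turned to -0.39 without siControl replicate 2.

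Other probe sets of the same genes often gave the opposite direction. The 38 genes had 79 probe sets, and 10 of the 16 tested genes had at least 2 above the filter. Besides the probe sets that stood for them, these 10 had 15 above the filter, 9 with a higher and 6 with a lower mean in siLSD1. In 4 of these 10 (FZD7, LRP6, SFRP1 and WNT5A) all such probe sets lay on the same side of 0. In the other 6 (DKK3, FRZB, FZD1, FZD2, FZD3 and WNT6) they lay on both sides. The second probe set of FZD2 was at 6.83 and 6.50 in siControl and at 6.77 and 6.23 in siLSD1, a log2 fold change of -0.16 (95% interval -0.88 to 0.55), so it did not show the difference of the first. FZD5 had a second probe set below the filter, at 0.19 and 1.66 in siControl and at 0.64 and 2.67 in siLSD1, with overlapping groups.

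Second readings of the antagonists were mixed as well. The second probe set of FRZB had a log2 fold change of -0.22, with overlapping groups. The other 3 probe sets of DKK3 above the filter had log2 fold changes of 0.26, -0.22 and 0.19, all with overlapping groups. Of the 3 other probe sets of FZD3 above the filter, 2 had both siLSD1 values below both controls, at log2 fold changes of -0.32 and -0.33, and 1 had them above, at 0.24. The second probe set of WNT6 had a log2 fold change of 0.56 and that of WNT5A of 0.29. No probe set of these genes passed in limma's test of 22283 single probe sets, where the adjusted p of each of these values was at least 0.99.

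**Figure D3:**
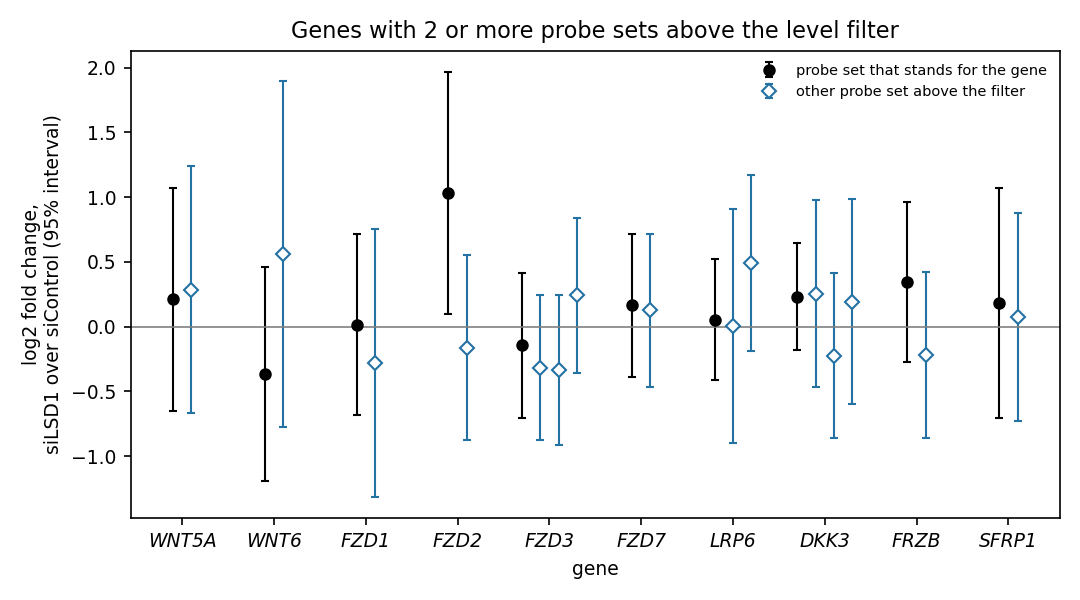
Log2 fold change, siLSD1 over siControl (vertical axis), of each probe set above the level filter in the 10 genes with more than 1, with 95% intervals from limma's test of single probe sets (slightly wider than in the test of 1 probe set per gene). Filled circles stand for the gene elsewhere in the text and open diamonds are its other probe sets; the pair of FZD2 lies at 1.03 and -0.16.

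The rest of the Wnt pathway was read from 7 lists with 96 different genes, of which 67 were tested. In limma 0 of the 67 passed at an adjusted p under 0.05. At an unadjusted p under 0.05 in limma there were 2 higher genes of the 67, ID2 and CELSR2, and 0 lower ones. Over all genes 3.45% passed, 2.29% higher and 1.15% lower. The groups did not overlap in 16 of the 67, or 23.9%, with 13 higher and 3 lower, beside 31.7% of all genes. No tested gene of these lists was 2-fold different without overlap. The adjusted p was 0.9996 for each gene named below.

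Upstream of the receptors, 2 of 8 genes for Wnt secretion and modification were tested. GPC3, a cell-surface glypican, was at 6.66 and 6.27 in siControl and at 6.97 and 7.01 in siLSD1, with a log2 fold change of 0.53 (95% interval -0.07 to 1.12). WLS, the carrier that brings Wnt proteins to the surface, had a log2 fold change of -0.04. In the R-spondin axis, whose ligands spare Frizzled receptors from removal by the ubiquitin ligases ZNRF3 and RNF43, 4 of 9 genes were tested and all 4 had overlapping groups. ZNRF3 was at 7.56 and 8.31 in siControl and at 8.29 and 8.50 in siLSD1, a log2 fold change of 0.46. The R-spondin receptors LGR4 and LGR5 had log2 fold changes of -0.11 and 0.0020, and the ligand RSPO4 of -0.31.

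Of 11 other receptors and extracellular regulators, 7 were tested, with overlapping groups in each and a median log2 fold change of 0.19. SOSTDC1, a secreted inhibitor, had a log2 fold change of 0.45, the WNT5A receptor ROR2 of 0.30, the DKK1 receptor KREMEN1 of 0.26 and DRAXIN of 0.19.

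Inside the cell, 23 of 28 genes of cytoplasmic transduction were tested, 9 with a higher and 14 with a lower mean and a median of -0.04. FRAT2, which keeps GSK3 from beta-catenin, was at 6.43 and 7.29 in siControl and at 7.44 and 7.43 in siLSD1, a log2 fold change of 0.57. BTRC, the ubiquitin ligase subunit that recognises beta-catenin, had a log2 fold change of 0.51 with overlapping groups. The kinases CSNK1A1 and CSNK1D had log2 fold changes of 0.16 and 0.23. Of 13 tested TCF and LEF factors and nuclear cofactors, 6 had a higher and 7 a lower mean, with a median of -0.01. TLE1, a corepressor of TCF factors, was at 7.58 and 9.10 in siControl and at 9.22 and 9.20 in siLSD1, a log2 fold change of 0.87 (95% interval -0.08 to 1.82). As in FZD2, siControl replicate 1 stood alone. TCF7L1, a TCF factor that often represses, was at 5.46 and 5.50 in siControl and above 5.50 on both siLSD1 arrays, a log2 fold change of 0.51. TCF7L2 had a log2 fold change of 0.23 and CBY1, which binds beta-catenin, of -0.33.

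Common targets of beta-catenin numbered 11 tested genes of 20, with 9 higher and 2 lower means and a median of 0.07. ID2, an inhibitor of basic helix-loop-helix factors that also responds to BMP signals, was at 9.73 and 9.60 in siControl and at 10.10 and 10.09 in siLSD1, with a log2 fold change of 0.43 (95% interval 0.13 to 0.73, unadjusted p = 0.0109 in limma). MSX2 had a log2 fold change of 0.71 with overlapping groups, and MYC of -0.30. AXIN2, a target chosen here after its value was seen because it is the usual readout of beta-catenin activity, was at 7.48 and 7.17 in siControl and at 7.32 and 7.36 in siLSD1, a log2 fold change of 0.01 (95% interval -0.53 to 0.55).

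In planar cell polarity, the branch that orients cells within a tissue, 11 of 15 genes were tested, with a median of 0.05. The groups did not overlap in 5 of these 11 (45.5%), 3 higher and 2 lower, beside 31.7% of all genes. The same share was 13% of the 23 transduction genes, 30.8% of the 13 nuclear genes and 27.3% of the 11 target genes. It was 50% of the 2 secretion genes, and in the 2 lists left every gene overlapped. CELSR2 and CELSR3 are atypical cadherins of this branch. CELSR2 was at 7.10 and 7.24 in siControl and at 7.62 and 7.76 in siLSD1, a log2 fold change of 0.52 (95% interval 0.0068 to 1.04, unadjusted p = 0.0477 in limma). CELSR3 had a log2 fold change of 0.28. The effectors INTU and FUZ, which act in the forming cilium, had log2 fold changes of -0.48 and -0.36, with both siLSD1 values below both controls in each.

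**Figure D4:**
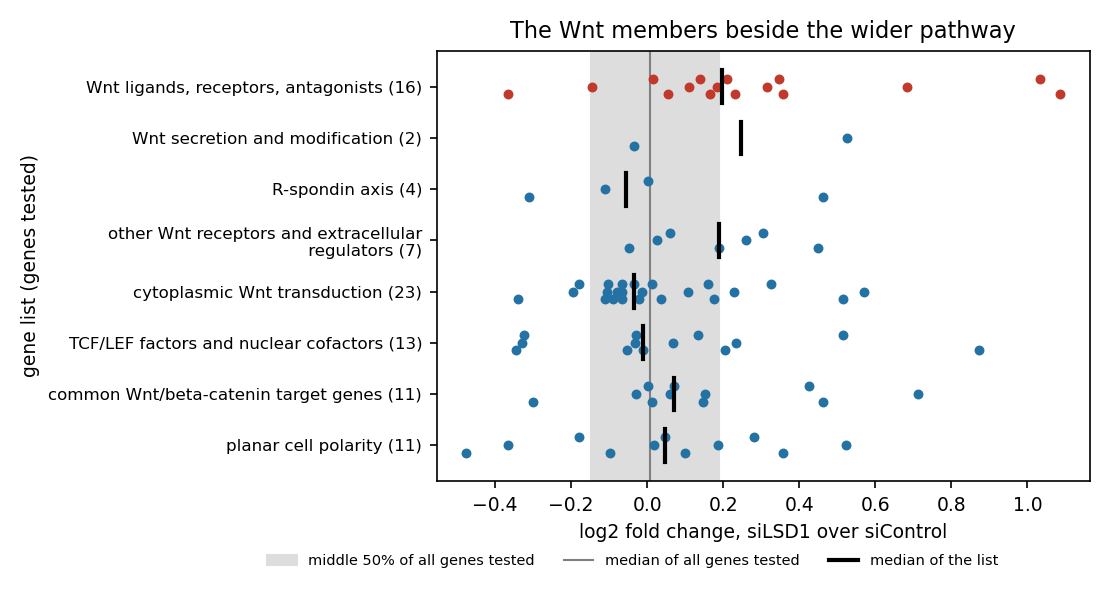
Log2 fold change, siLSD1 over siControl (horizontal axis), of each tested gene in 8 groups (vertical axis, number of genes in brackets), with black bars at the group medians; the grey band holds the middle 50% of all genes, from -0.15 to 0.19. The 16 Wnt members have a median of 0.20, and those of the larger transduction and nuclear lists lie at -0.04 and -0.01.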

How the data were processed

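The deposited table held 1 log2 value per probe set and array. The scale was found from the values: base-2 antilogs trimmed by 2% at each end had a mean of 100.0 on each array. How the authors summarised probes: not given in the sources used here. The medians of the arrays spanned 0.27, so arrays were quantile normalized, which would remove an overall difference in signal. Probe sets (54675, 62 of them controls) were named through the platform annotation, and only the 41091 with 1 gene symbol were used. Symbols and Entrez identifiers of all 38 members matched RefSeq (GRCh38.p14). Genes with a mean below the 40th percentile (7910) were left out.

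Groups were taken from the sample titles. The comparison used limma 3.58.1 in R 4.3.3 (lmFit, eBayes with a mean-variance trend, two-sided, Benjamini-Hochberg over 11865 genes, threshold 0.05). The fit was also run on simulated data, with independent noise drawn from its own variance estimate. Those data held no differences between whole arrays, so the run cannot show how the fit handles them. The p-values reflect only how replicate arrays of 1 line varied, and the number of arrays limits the precision (median half-width of the members' 95% intervals 0.77). Every member was named; in each pathway list up to 4 tested genes with the smallest unadjusted p were. The members and lists were chosen with earlier results of these data known. Alternatives covered scaling, filter, probe set choice, variance trend, a replicate block and leaving out each array. Promoter sequences came from RefSeq tables (25 of 38 members matched).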

Additional observations from a re-analysis of the deposited data

How the results depend on the processing

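No member was called under any alternative that kept 2 arrays in each group. With 1 array left out a group held a single array, so only the sizes of the differences are given for those fits. Over 180 values of single members under all alternatives, 24 turned. FZD4 and FZD5 kept their sign under every alternative in which they were tested, but neither had a second probe set above the filter. The number at an unadjusted p under 0.05 in limma, 2 of 16, was 1 of 16 with the deposited scaling and 1 of 10 with the stricter filter. Of all genes 3.29% and 3.44% passed there. It was 0 of 12 with the mean of all probe sets and 0 of 16 without a variance trend, where 3.69% and 3.57% of all genes passed. FZD5 was not tested with the stricter filter or with the mean of all probe sets. It could therefore not enter these counts, or the 2-fold counts below, in those 2 settings. Under median centring it was 3 (DKK3, FZD2 and FZD5), where 6.52% of all genes passed. Without a filter it was 2 of 38 (FZD2 and WNT1), where 3.85% of all genes passed. The number without overlap, 4 of 16, was 8 of 38 without a filter and ran from 6 to 12 with 1 array left out, where a lone array in a group separates more easily (56.7% to 76.9% of all genes). It was also 4 with the deposited scaling, but with 3 higher (DKK3, FZD2 and FZD5) and 1 lower (WNT6), beside 31.3% of all genes. Under median centring it was 6, all of them higher, beside 41.4% of all genes. The number at least 2-fold without overlap, 2, was 1 with the deposited scaling, 5 without a filter, 1 with the stricter filter and 0 with the mean of all probe sets, and ran from 1 to 3 with 1 array left out. The members' median of 0.20 was 0.38 under median centring, which moved the median of all genes to 0.18, and ran from 0.025 to 0.27 with 1 array left out. Under median centring FZD3 turned to 0.041. With the mean of all probe sets FZD1 turned to -0.014 and SFRP1 to -0.13. Single probe sets turned DKK3 (-0.22), FRZB (-0.22), FZD1 (-0.28), FZD2 (-0.16), FZD3 (0.24) and WNT6 (0.56). The cause of these turns was not tested. With 1 array left out, the ranges were -0.065 to 0.29 for DKK1, -0.39 to 1.10 for DKK2, -0.30 to 0.33 for FZD1, -0.41 to 0.12 for FZD3, -0.32 to 0.95 for FZD6, -0.035 to 0.36 for FZD7, -0.038 to 0.32 for LRP5, -0.15 to 0.26 for LRP6, -0.37 to 0.73 for SFRP1 and -0.095 to 0.52 for WNT5A, and, with no turn, 0.12 to 0.35 for DKK3, 0.17 to 0.52 for FRZB, 0.40 to 1.67 for FZD2, 0.10 to 1.27 for FZD4, 0.49 to 1.68 for FZD5 and -0.65 to -0.086 for WNT6. KDM1A ran from -1.39 to -1.25. With the replicate block KDM1A kept its -1.32 and passed (adjusted p = 0.0194), 13 genes were called in all and no member (smallest adjusted p 0.318). The labels do not say that a number marks a shared experiment, and the differences between replicates correlated at 0.05 between the groups over all genes, so the block was not used as the pairing of the samples.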

Other observations

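The stretches upstream of the Wnt members were rich in G and C. Over the 250 bases before the start, 28 promoters of 25 members had a median GC content of 72.0%, beside 58.0% over all 35116 promoters in the table, and a median of 22 CpG pairs beside 11. The 8 tested genes with an entry had a median of 65.2% and 19 pairs, and the 17 below the filter 72.4% and 23 pairs. These are descriptions of letters, and 13 members had no entry.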
